A study of Homo sapiens with 4 samples.

Results

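Replication-dependent histone cluster genes were examined in RNA-seq libraries of cells transfected with siNC or siLINC01186. The members were the protein-coding rows whose symbols begin with HIST1H, HIST2H, HIST3H or HIST4H. There were 70 of them among the 44591 genes counted, and 8 further rows with such symbols carried another gene type and were left out. They comprised 6 H1, 17 H2A, 18 H2B, 14 H3 and 15 H4 genes. By position, 55 lay on chromosome 6, 14 on chromosome 1 and 1 on chromosome 12. A minimum of 5 counts summed over the 4 libraries was met by 65 members. The other 5 were HIST1H1T and HIST1H4G with 0 counts in every library, HIST1H2AA with 4 counts, and HIST2H2AA4 and HIST2H3A with 3 counts each.

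These genes supply most of the histone protein that wraps newly copied DNA. H2A and H2B form dimers, H3 and H4 form a tetramer, and H1 binds the linker DNA between nucleosomes. Their mRNAs are made in S phase, mostly lack introns, and end in a short stem-loop in place of a poly(A) tail. SLBP binds the stem-loop, and the U7 snRNP with CPSF3 cuts the transcript just after it. Some of the genes, HIST1H1C, HIST1H2AC, HIST1H2BD, HIST1H2BK and HIST2H2BE among them, are also known to make polyadenylated transcripts that read through the stem-loop. Poly(A) selection keeps only a part of the mRNA of these genes, and a level in such a library cannot tell transcription, 3' end formation and the selection step apart.

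HepG2, the established human hepatoma line named in the labels, had been transfected with siNC, a control siRNA, or siLINC01186, an siRNA against the long noncoding RNA LINC01186 that the study calls SALIS. The cells stayed 6 h in medium without serum and then 24 h in medium with serum, and total RNA was enriched with oligo-dT beads. Each group had 2 libraries, numbered 1 and 2 in the labels, which the study describes as biological repeats with the same siNC and different siRNA oligos against LINC01186. The labels do not say which oligo went into which library, so the oligo and the replicate cannot be told apart in the siLINC01186 group.

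The libraries held between 14968958 and 17297245 counts. A floor of 3 counts lay between 0.173 and 0.200 CPM, where CPM means counts per 1000000 counts of the library. This floor and the Wilson 95% intervals below cover counting error only. Counts of LINC01186 were 15 and 14 in the siNC libraries, and 12 and 14 where the label reads siLINC01186. At these low counts a lower level of the target was not detected (edgeR log2 fold change -0.12 ± 0.53, SE), and the siLINC01186 name is used here as a label. By quantitative PCR, another measure, the study reports knockdown of this RNA by siRNA in HepG2 cells.

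The liver identity of the cells did not appear in the counts. The hepatocyte genes ALB, AFP, APOA1, APOB, TTR, SERPINA1 and FGB summed to 0.173 CPM in siNC replicate 1 and 5.63 CPM in siNC replicate 2. In siLINC01186 replicates 1 and 2 the sum was 0.401 and 4.41 CPM. ALB, which encodes serum albumin, had 0 counts in both replicate 1 libraries and 15 and 14 counts in the replicate 2 libraries of siNC and siLINC01186. TTR was at 0 in all libraries except siLINC01186 replicate 2, where it had 3 counts. Of the 6 hepatocyte genes tested, 4 were higher in the replicate 2 libraries at an adjusted p under 0.05. The markers of other cells were also low or moderate. PTPRC, PECAM1, COL1A1 and KRT5 summed to 28.6, 53.0, 25.3 and 46.6 CPM in siNC replicate 1, siNC replicate 2, siLINC01186 replicate 1 and siLINC01186 replicate 2. COL1A1 supplied most of these, PTPRC had 2 counts in siLINC01186 replicate 2 and 0 elsewhere, and PECAM1 reached 7 counts. The libraries are therefore named by their labels. The part of these differences between replicate 1 and 2 libraries in the results below was not tested.

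The stem-loop that ends these mRNAs was searched in the GENCODE release 29 transcripts as a 6-base stem that begins GG and ends CT, a 4-base loop and the reverse complement of the stem, within 100 bases after the stop codon. It was found in 31 of the 70 members and in 41 of all 19669 protein-coding genes, a share of 0.208%. For 34 of the other members the annotation stops at the stop codon, so their sequence could not be searched, and 5 had 30 or more bases without a match. The most frequent form, in 17 members, was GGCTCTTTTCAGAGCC. Windows of 30 bases are shown for members with large counts or for a variant of the stem or loop, with the stem-loop in capitals.
HIST1H2AC: ccaaaGGCTCTTTTCAGAGCCcccctaccg
HIST2H2BE: ccaaaGGCTCTTTTCAGAGCCacccaccta
HIST1H3H: ccaaaGGCTCTTTTCAGAGCCacccacatg
HIST1H2BC: ccaaaGGCTCTTTTAAGAGCCacccagata
HIST1H2BD: ccaaaGGCTCTTTTAAGAGCCacgcatgtt
HIST1H4E: tcaaaGGCCCTTTTCAGGGCCgcccacagt
HIST4H4: caaaaGGCCCTTTTCAGGGCCcccaaactg
HIST1H3E: ccaaaGGCTCTTCTCAGAGCCaaccacttt
The H4 genes shown carry a GGCCCT stem and the H2A, H2B and H3 genes a GGCTCT stem. The form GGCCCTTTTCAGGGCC was found in 5 members, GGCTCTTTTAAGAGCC in 5 and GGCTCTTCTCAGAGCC in HIST1H3E alone. In 12 members the annotated transcript ran on for at least 100 bases and held AATAAA, the usual poly(A) signal, in its last 50 bases.

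Promoters of 65 of the 70 members were matched by NCBI gene number in RefSeq (GRCh38.p14), each from 250 bases before to 50 bases after the annotated start. A promoter was counted for a motif when its letters occurred on either strand, and no motif of the 4 searched contains another. The octamer ATTTGCAT occurred in 40% of the members' promoters and in 2.19% of those of all 27305 genes. It was present for 11 of 16 H2A genes, 14 of 18 H2B genes, 1 of 12 H3 genes, 0 of 6 H1 genes and 0 of 13 H4 genes. CCAAT was found in 84.6% of members and 39.7% of all genes, and TATAAA in 67.7% and 13.99%. GGTCCG, a motif known from H4 promoters, occurred for 12 of 13 H4 genes, in 23.1% of members and in 13.4% of all genes. An H2B and an H4 promoter of genes that differed between libraries are shown, with octamer and CCAAT letters (on either strand) in capitals in the first and GGTCCG in the second. The HIST1H2BC promoter lies on the minus strand at chr6:26123877-26124176 and the HIST1H4E promoter on the plus strand at chr6:26204360-26204659.
HIST1H2BC: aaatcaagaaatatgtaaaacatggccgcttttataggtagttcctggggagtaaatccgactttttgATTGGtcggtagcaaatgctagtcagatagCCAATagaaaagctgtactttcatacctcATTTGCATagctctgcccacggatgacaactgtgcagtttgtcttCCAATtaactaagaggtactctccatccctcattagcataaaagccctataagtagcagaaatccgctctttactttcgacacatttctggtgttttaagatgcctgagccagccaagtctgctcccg
HIST1H4E: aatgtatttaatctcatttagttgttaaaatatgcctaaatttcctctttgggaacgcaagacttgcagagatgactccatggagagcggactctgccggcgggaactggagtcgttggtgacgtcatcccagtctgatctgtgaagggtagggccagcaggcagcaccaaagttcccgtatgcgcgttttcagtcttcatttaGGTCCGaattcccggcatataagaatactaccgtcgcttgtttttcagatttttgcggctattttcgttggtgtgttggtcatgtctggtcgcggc
In HIST1H2BC the octamer began 123 bases before the start, and in HIST1H4E the GGTCCG motif began 46 bases before it. These matches describe letters in the window and were not linked to binding.

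Transcripts of the 70 members summed to 199 CPM in siNC replicate 1 (95% interval 192 to 206) and to 424 CPM in siNC replicate 2 (414 to 434). The siLINC01186 libraries had 224 CPM in replicate 1 (217 to 232) and 266 CPM in replicate 2 (259 to 274). SiNC replicate 2 thus stood above the other 3 libraries, at 2.13 times its own group's replicate 1. Between the siLINC01186 libraries the ratio of replicate 2 to replicate 1 was 1.19. The siLINC01186 library lay at 1.13 times the siNC library in replicate 1 and at 0.629 times in replicate 2. The direction in replicate 1 depended on the scale, since on the deposited TPM these ratios were 0.933 and 0.563. MIR6087 alone took 13.8% of the TPM in siLINC01186 replicate 1 and 1.16% in siNC replicate 1, and with it out of the total the ratios were 1.07 and 0.604. Group means were 311 ± 159 CPM (SD, n = 2) for siNC and 245 ± 29.7 CPM (SD, n = 2) for siLINC01186, so the groups overlapped and the difference of the means was smaller than the spread of the siNC libraries. In bulk RNA, fewer cells in S phase and less histone mRNA per cell cannot be told apart.

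**Figure D1:**
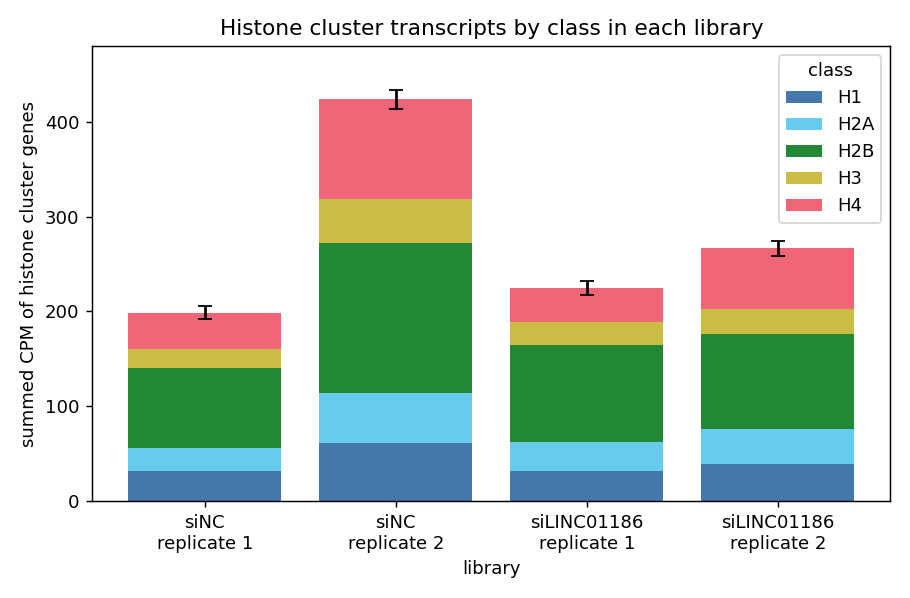
Summed CPM of the 70 histone cluster genes in each library, stacked by histone class. The error bars are the Wilson 95% intervals of the total (counting error only), and siNC replicate 2 reaches 424 CPM while the other libraries lie between 199 and 266 CPM.

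SiNC replicate 2 had the highest sum in every class. H2B, the largest class, summed to 84.6 and 159 CPM in siNC replicates 1 and 2 and to 102 and 100.03 CPM in siLINC01186 replicates 1 and 2. H4 summed to 38.3 and 105 CPM in siNC and to 35.9 and 63.7 CPM in siLINC01186. The H4 sum was the one that also separated the siLINC01186 libraries most, at 1.78 times from replicate 1 to replicate 2. The other 3 classes were lower. H1 summed to 31.6 and 61.2 CPM in siNC and to 31.9 and 39.6 CPM in siLINC01186. H2A summed to 24.1 and 52.4 CPM in siNC and to 30.3 and 37.1 CPM in siLINC01186. H3 summed to 20.3 and 46.2 CPM in siNC and to 24.4 and 26.0 CPM in siLINC01186. The ratio of siNC replicate 2 to replicate 1 ran from 1.88 in H2B to 2.75 in H4. Of the members' counts, H4 genes took 19.3% in siNC replicate 1, 24.9% in siNC replicate 2, 15.98% in siLINC01186 replicate 1 and 23.9% in siLINC01186 replicate 2.

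A few genes held much of the signal. The 5 members with the most counts took 44.8% of all member counts and the 10 highest took 58.9%, while 13 tested members stayed under 1 CPM in every library. Per kilobase of the length in the tables, the highest mean level was that of HIST1H4C, at 51.8 CPM per kilobase, followed by HIST1H2BK at 48.2, HIST1H1C at 43.8, HIST1H4E at 42.2 and HIST1H2BC at 31.2. Across the 4 libraries the level of HIST1H4C ran from 23.5 to 89.7 on this scale and that of HIST1H2BK from 38.7 to 58.5. HIST1H4C lay below HIST1H2BK in both replicate 1 libraries and above it in both replicate 2 libraries. HIST1H4E lay above HIST1H2BC in all 4 libraries. Differences between genes were not tested.

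The comparison of the replicate 2 with the replicate 1 libraries asks how far these mRNAs differ between libraries irrespective of the siRNA. It compares numbered libraries, not a treatment, and its p-values measure the spread between these samples. In edgeR's quasi-likelihood fit to 23942 genes, 13 members were higher in replicate 2 at a Benjamini-Hochberg adjusted p under 0.05 and 0 were lower. The background was 4.44% of all genes higher and 4.57% lower. A log2 fold change above 1 with an unadjusted p under 0.05, the limits of the study, was met by 14 members against 3.94% of all genes, and a log2 fold change below -1 by 0 members against 1.52%. At an unadjusted p under 0.05 there were 26 higher and 0 lower members, against 11.5% and 11.9% of all genes. DESeq2's Wald test called 7 members higher and 0 lower after adjustment, against 2.61% and 3.89% of all genes. The median log2 fold change was 0.64 over the tested members and 0.02 over all genes.

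The 13 called genes were picked by the replicate comparison, so their order of libraries follows partly from that choice and is not separate evidence. Of the 13, 12 were highest in siNC replicate 2, and all 13 lay higher in replicate 2 than in replicate 1 in both groups. With 2 counts added, their log2 differences were 1.07 to 2.31 between the siNC libraries and 0.51 to 1.53 between the siLINC01186 libraries. These calls depended on single libraries. Without siNC replicate 2, 8 of 64 members tested were higher and 2 lower after adjustment, against 6.91% and 7.69% of all genes, and 7 of them were among the 13. At the limits 6 were then higher and 5 lower, against 4.28% and 2.01%, so the shares of members higher stood nearer to the background than with all libraries. Without siLINC01186 replicate 2, 22 members were higher after adjustment, against 5.89% of all genes, and 28 at the limits, against 3.59%. Without siNC replicate 1, 3 were lower at the limits, against 1.47%. The 2 members lower in replicate 2 once siNC replicate 2 was left out were HIST1H2BK and HIST1H3F, named here after their values were seen, with log2 fold changes of -0.54 and -2.09.

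The siLINC01186 group was compared with siNC to ask whether these genes responded to the siRNA. At an adjusted p under 0.05, edgeR called 0 members, and the background was 0.0% of all genes in either direction. DESeq2 also called 0 after adjustment, against 0.004% of all genes higher and 0.0% lower. At the limits of the study, 1 member was higher against 0.464% of all genes and 2 were lower against 0.292%. These 3 were also the members with an unadjusted p under 0.05, against 0.656% of all genes higher and 0.551% lower. The median log2 fold change was -0.30 over the 65 tested members, of which 24 had positive and 41 negative values, and 0.00 over all genes. The value rested on siNC replicate 2, without which the median was 0.27 and 2 members were higher and 0 lower at the limits, against 1.24% and 0.407% of all genes. Without siNC replicate 1 the limits were passed by 14 lower members, against 0.533%. Without siLINC01186 replicate 1 they were passed by 2 higher and 1 lower member, against 0.769% and 0.838%, and without siLINC01186 replicate 2 by 0 higher and 5 lower members, against 0.359% and 0.890%.

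HIST1H4D, an H4 gene of the chromosome 6 cluster, was lower in siLINC01186 at the limits. It had 5.09 and 11.7 CPM in siNC replicates 1 and 2 and 3.07 and 4.17 CPM in siLINC01186 replicates 1 and 2. Both siLINC01186 libraries lay below both siNC libraries. The log2 fold change was -1.22 ± 0.41 (SE; edgeR, unadjusted p = 0.0155, adjusted p = 1.00). HIST1H3A, an H3 gene, had 25 and 40 counts in siNC libraries and 11 and 18 counts in siLINC01186, again without overlap of the groups. Its log2 fold change was -1.14 ± 0.50 (SE; edgeR, unadjusted p = 0.0475, adjusted p = 1.00). The member that passed upward was HIST1H2BA, a testis histone of the H2B class, with 20 counts in siLINC01186 replicate 2 and 0 in each of the other 3 libraries. That library stood at least 5.9-fold above the highest floor of the others, and the call was a property of that 1 library.

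Within each replicate number the members lay in different directions on the CPM scale. The siLINC01186 library was above siNC in replicate 1 for 40 of 65 members, against 48.0% of all genes, and below siNC in replicate 2 for 54 members, against 44.7% of all genes. Both held for 32 members, or 49.2%, against 19.4% of all genes. The medians of the log2 difference of siLINC01186 minus siNC were 0.21 in replicate 1 and -0.47 in replicate 2, against medians of -0.003 and 0.05 over all genes. Whether the effects in replicates 1 and 2 differ was not tested, since each rests on 1 library per group.

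**Figure D2:**
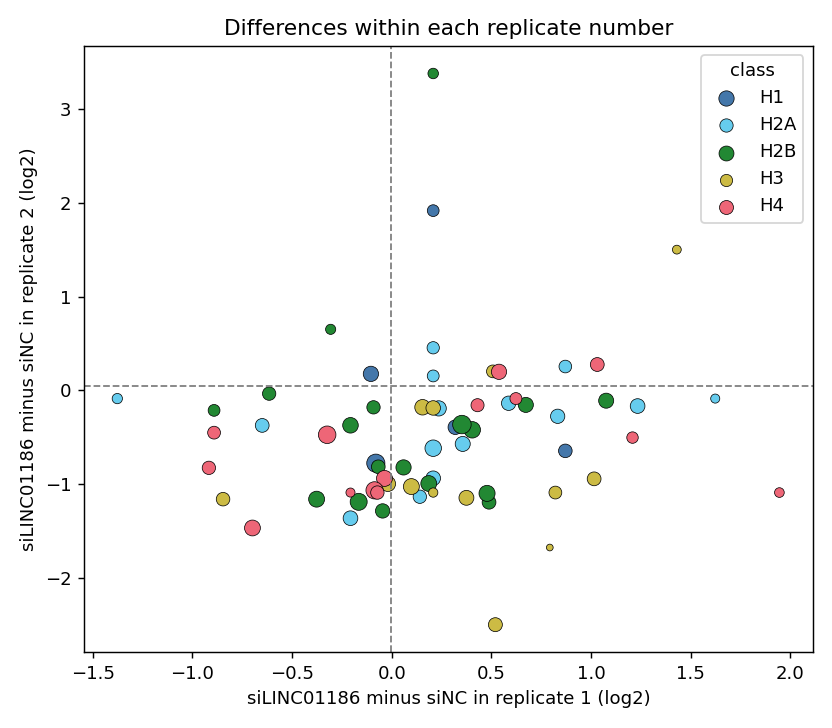
Log2 difference of siLINC01186 minus siNC for each of the 65 tested members, with replicate 1 on the horizontal and replicate 2 on the vertical axis. Point size grows with the total count, colour gives the class, and dashed lines mark the medians of all genes (-0.003 and 0.05). Most points, 54 of 65, belong to members lower in siLINC01186 in replicate 2.

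The siNC library of replicate 2 was the highest of the 4 for 40 members, against 26.6% of all genes. It exceeded siNC replicate 1 by at least 2-fold for 37 members, against 15.5% of all genes. Both replicate 2 libraries lay above both replicate 1 libraries for 32 members, or 49.2%, against 34.6% of all genes. Of the remaining members, 16 were highest in siLINC01186 replicate 1, 7 in siLINC01186 replicate 2 and 2 in siNC replicate 1. Among the 24 members with at least 200 counts, siNC replicate 2 was the highest for 19. These counts were summed over all libraries, so members high in siNC replicate 2 passed the limit more easily. The share of all genes at this limit was not computed, so the 19 are a description only.

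H4 genes gave 4 of the 13 calls between replicate numbers. HIST1H4C (hg19, chr6:26104176-26104565, plus strand) had 11.5 and 35.0 CPM in siNC replicates 1 and 2, and 9.15 and 25.2 CPM in siLINC01186 replicates 1 and 2. Both replicate 2 libraries were above both replicate 1 libraries. The log2 fold change of replicate 2 against replicate 1 was 1.43 ± 0.19 (SE; edgeR, adjusted p = 0.000558). HIST1H4E (chr6:26204873-26205249, plus strand) had 9.60 and 30.5 CPM in siNC and 9.02 and 14.5 CPM in siLINC01186. Its replicate 2 libraries were both higher, and siNC replicate 2 held more than the siLINC01186 library of that number, with a log2 fold change of 1.17 ± 0.26 (SE; edgeR, adjusted p = 0.0124). HIST1H4B had 4.34 and 11.95 CPM in siNC and 4.21 and 6.20 CPM in siLINC01186, and was called with a log2 fold change of 0.98. HIST4H4 (chr12:14923654-14924065, minus strand), which lies alone on chromosome 12, had 1.91 and 5.38 CPM in siNC and 2.81 and 6.20 CPM in siLINC01186. It was the called gene whose highest library was siLINC01186 replicate 2, with a log2 fold change of 1.19 ± 0.27 (SE; edgeR, adjusted p = 0.0112). HIST1H4D, called at the limits between the siRNA groups, had a log2 fold change between replicate numbers of 0.84 that missed the threshold (edgeR, adjusted p = 0.183).

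H2B genes included the called member with the largest fold change, HIST1H2BO, and the member with the highest CPM, HIST1H2BK. HIST1H2BO (chr6:27861203-27861669, plus strand) had 2.83 and 14.5 CPM in siNC replicates 1 and 2 and 2.14 and 6.43 CPM in siLINC01186 replicates 1 and 2. Replicate 2 was higher in both groups, with a log2 fold change of 1.95 ± 0.34 (SE; edgeR, adjusted p = 0.0026). HIST1H2BC (chr6:26123695-26124132, minus strand) had 7.23 and 28.6 CPM in siNC and 6.41 and 12.5 CPM in siLINC01186. The siNC replicate 2 library stood above the other 3, and the log2 fold change was 1.48 ± 0.29 (SE; edgeR, adjusted p = 0.00607). HIST1H2BN, not covered by the rule for named genes and chosen after its values were seen, was the other H2B gene called, with 62 and 121 counts in siNC and 46 and 99 in siLINC01186. HIST1H2BK (chr6:27106072-27114637, minus strand) had the highest CPM of all members, at 40.6 and 44.1 in siNC and 51.9 and 34.3 in siLINC01186. Its values overlapped between groups and between replicate numbers, and the log2 fold change of replicate 2 against replicate 1 was -0.35 ± 0.17 (SE; edgeR, adjusted p = 0.219). HIST1H2BD and HIST2H2BE had log2 fold changes of 0.55 and 0.03 between replicate numbers, neither of which passed.

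H2A genes gave 3 calls. HIST1H2AC (chr6:26124373-26124918, plus strand) had 5.43 and 15.6 CPM in siNC replicates 1 and 2 and 6.28 and 10.1 CPM in siLINC01186 replicates 1 and 2. It lies beside HIST1H2BC on the opposite strand and, like it, was highest in siNC replicate 2, with a log2 fold change of 1.02 ± 0.23 (SE; edgeR, adjusted p = 0.0115). HIST1H2AM had 2.02 and 5.88 CPM in siNC and 2.61 and 3.93 CPM in siLINC01186, with a log2 fold change of 0.98 (edgeR, adjusted p = 0.046). HIST2H2AB of the chromosome 1 cluster, chosen after its values were seen, had 18 and 57 counts in siNC and 24 and 55 in siLINC01186. The replicate 2 libraries of both groups were thus almost level for this gene, and the log2 fold change was 1.28 (edgeR, adjusted p = 0.0222). HIST1H2AE and HIST3H2A did not pass, with log2 fold changes of 0.22 and 0.55 between replicate numbers.

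H3 was the class with the lowest summed CPM in every library. HIST1H3B had 3.06 and 7.02 CPM in siNC replicates 1 and 2 and 3.41 and 6.20 CPM in siLINC01186 replicates 1 and 2, and was higher in replicate 2 with a log2 fold change of 0.92 ± 0.23 (SE; edgeR, adjusted p = 0.0231). HIST1H3H had 2.66 and 8.41 CPM in siNC and 2.61 and 4.17 CPM in siLINC01186, and was called with a log2 fold change of 1.14 ± 0.31 (SE; edgeR, adjusted p = 0.0322). In both genes siNC replicate 2 was the highest library. HIST1H3D had 80 and 176 counts in siNC and 74 and 91 in siLINC01186, and HIST1H3G had 47 and 77 in siNC and 53 and 36 in siLINC01186. Neither passed, with log2 fold changes of 0.68 and 0.06 between replicate numbers.

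Linker histone genes divided by member. HIST1H1C (chr6:26055968-26056699, minus strand), the most abundant H1 gene, had 22.9 and 52.9 CPM in siNC replicates 1 and 2 and 21.6 and 30.9 CPM in siLINC01186 replicates 1 and 2. It was higher in replicate 2, with a log2 fold change of 0.80 ± 0.21 (SE; edgeR, adjusted p = 0.023). HIST1H1E had 4.34 and 3.98 CPM in siNC and 4.01 and 4.53 CPM in siLINC01186, so that all 4 libraries were close, with a log2 fold change of -0.09 ± 0.24 (SE; edgeR, adjusted p = 0.877). HIST1H1D and HIST1H1B had negative log2 fold changes of -0.60 and -0.75 that did not pass. Both were highest in siLINC01186 replicate 1 and lowest in siLINC01186 replicate 2. HIST1H1A, chosen after its values were seen, had 5 and 4 counts in siNC and 5 and 22 counts in siLINC01186.

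**Figure D3:**
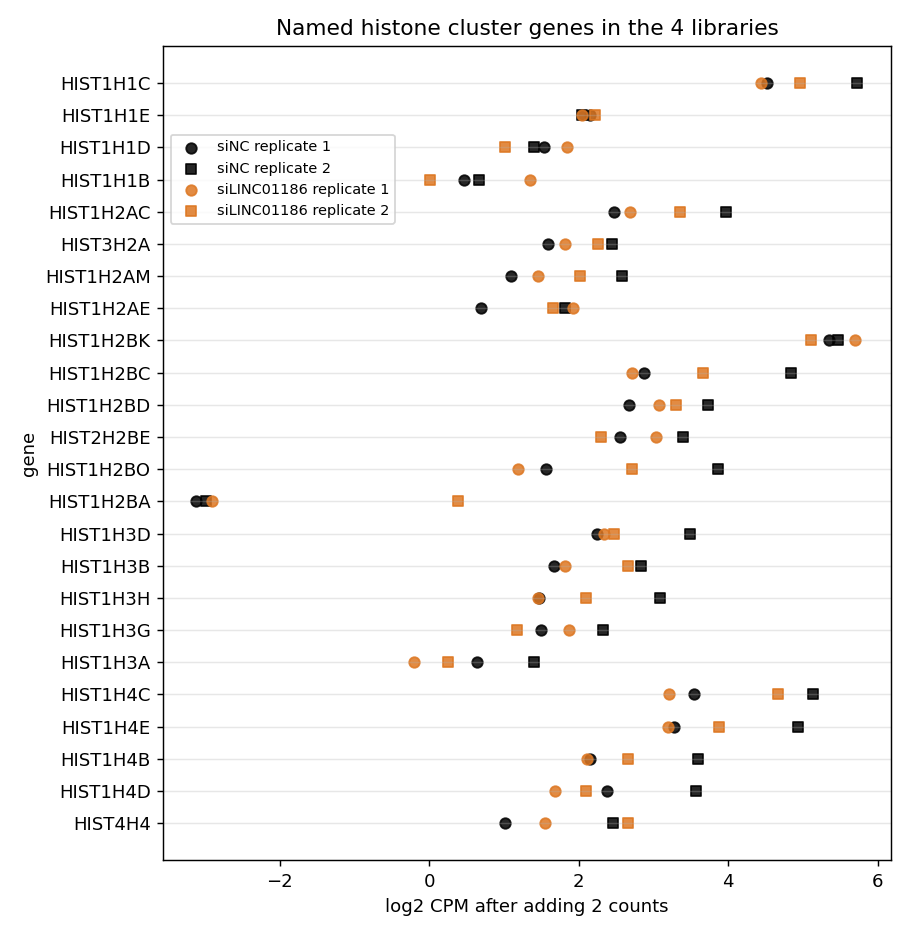
Log2 CPM, after adding 2 counts, of the 24 named genes in the 4 libraries, ordered by class. Circles are replicate 1, squares replicate 2, black is siNC and orange siLINC01186. The black square of siNC replicate 2 lies farthest right for most genes, while HIST1H1E and HIST1H2BK keep close values and HIST1H2BA departs from the floor only in siLINC01186 replicate 2.

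Genes known to make polyadenylated transcripts were set beside the rest. The 5 listed genes summed to 81.0 and 136 CPM in siNC replicates 1 and 2 and to 96.2 and 90.0 CPM in siLINC01186 replicates 1 and 2. The other 65 members summed to 118 and 288 CPM in siNC and to 128 and 176 CPM in siLINC01186. The ratio of siNC replicate 2 to replicate 1 was 1.68 for the listed genes and 2.44 for the others, and in siLINC01186 it was 0.935 and 1.38. Of the 5, HIST1H1C and HIST1H2AC were called higher in replicate 2 and 3 were not. HIST1H2BK carried most of this contrast. Without it the other 4 listed genes summed to 40.4 and 92.0 CPM in siNC and 44.3 and 55.6 CPM in siLINC01186, with ratios of replicate 2 to replicate 1 of 2.28 and 1.26.

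The members were also divided by annotated length. The 5 members with a length above 800 bases in the tables summed to 60.1 and 85.5 CPM in siNC and 76.2 and 58.1 CPM in siLINC01186. The 65 shorter members summed to 139 and 338 CPM in siNC and 148 and 208 CPM in siLINC01186. The siNC ratio of replicate 2 to replicate 1 was 1.42 for the longer and 2.44 for the shorter members, but 3 of the 5 longer genes are on the polyadenylated list, and without HIST1H2BK the longer members had a ratio of 2.12. The 12 members with a stem-loop and an annotated longer AATAAA form summed to 31.0 and 75.8 CPM in siNC and 37.8 and 41.5 CPM in siLINC01186. Their ratio between the siNC libraries was 2.44, against 2.07 for the other 58 members. These 58 include HIST1H2BK, with 40.6 and 44.1 CPM in siNC, whose part in the gap was not separated. They also include HIST1H1C and HIST1H2BD of the polyadenylated list and the 34 members that could not be searched for a stem-loop. The tables give HIST1H2AC a length of 546 bases, while its GENCODE transcript has 1654 bases, so reads on the longer form may lie outside what was counted.

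Clusters on chromosomes 6 and 1 showed the same library on top. The 34 members of the first HIST1 stretch, from HIST1H2AA to HIST1H4H, summed to 112 and 272 CPM in siNC replicates 1 and 2 and to 115 and 163 CPM in siLINC01186 replicates 1 and 2. The 21 members of the second stretch, from HIST1H2BJ to HIST1H2BO, summed to 68.8 and 110.0 CPM in siNC and to 83.8 and 73.8 CPM in siLINC01186. On chromosome 1 the 11 HIST2 genes summed to 12.1 and 28.1 CPM in siNC and to 17.4 and 16.4 CPM in siLINC01186. The 3 HIST3 genes summed to 4.34 and 8.22 CPM in siNC and to 5.08 and 7.51 CPM in siLINC01186.

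Replication-independent histones, which are expressed outside S phase and mostly from ordinary polyadenylated mRNAs, were set beside the cluster genes. The 12 listed genes summed to 1812 and 2002 CPM in siNC replicates 1 and 2 and to 1904 and 1711 CPM in siLINC01186 replicates 1 and 2. Of 11 tested, 2 were higher and 1 was lower in replicate 2 after adjustment. H1F0, the linker histone of resting cells, had 115 and 253 CPM in siNC and 132 and 168 CPM in siLINC01186, the same order of libraries as the cluster genes. Its log2 fold change was 0.66 ± 0.17 (SE; edgeR, adjusted p = 0.021). H2AFJ was the other gene higher, with 19.4 and 36.2 CPM in siNC and 24.0 and 33.9 CPM in siLINC01186, and H3F3B was lower, with a log2 fold change of -0.44. Between siRNA groups 0 of the 11 passed the adjusted threshold or the limits of the study.

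Genes of DNA replication and the G1/S transition, which are transcribed as cells enter S phase, did not share the order of libraries. The 25 listed genes summed to 3613 and 3505 CPM in siNC and to 3787 and 3669 CPM in siLINC01186. In replicate 2, 0 were higher, and CCNE1, RRM2 and CDC6 were lower, with log2 fold changes of -0.48, -0.71 and -0.45. Among 23 factors of histone mRNA transcription, processing and decay, 0 were higher and SNRPB, CSTF2 and SRRT were lower in replicate 2, and the list summed to 2082 and 1914 CPM in siNC and 2123 and 2017 CPM in siLINC01186. SLBP, the stem-loop binding protein, had 1335 and 1315 counts in siNC and 1257 and 1317 in siLINC01186, with a log2 fold change of -0.11 ± 0.13 (SE; edgeR, adjusted p = 0.670). The 14 histone chaperones had 0 calls in either direction, with 2229 and 2230 CPM in siNC and 2388 and 2353 CPM in siLINC01186. In these 3 lists 0 genes passed the limits between siRNA groups.

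Other RNAs without a canonical poly(A) tail were compared as a check of the selection step. RN7SL1 and RN7SL2, the RNA of the signal recognition particle, summed to 4893 and 9289 CPM in siNC replicates 1 and 2 and to 5567 and 10059 CPM in siLINC01186 replicates 1 and 2. They were thus high in both replicate 2 libraries, at 1.90 times replicate 1 in siNC and 1.81 times in siLINC01186, where the histone cluster genes had 2.13 and 1.19. Of 11 listed RNAs, RPPH1, RN7SL1, RN7SL2 and MALAT1 were higher in replicate 2 and 0 were lower. TERC, the RNA of telomerase, passed the limits between siRNA groups with a log2 fold change of 1.04 (edgeR, adjusted p = 1.00). Rows typed as snoRNA summed to 173 and 112 CPM in siNC and 168 and 133 CPM in siLINC01186. Those typed as snRNA summed to 85.3 and 78.7 CPM in siNC and 141 and 102 CPM in siLINC01186. RN7SK, also among the 11 listed RNAs, supplied most of this, with 76.7 and 68.4 CPM in siNC and 134 and 86.3 CPM in siLINC01186. Rows typed as rRNA summed to 10124 and 7668 CPM in siNC and 8616 and 7661 CPM in siLINC01186. MIR6087 had 253 and 435 CPM in siNC and 3560 and 2179 CPM in siLINC01186. None of these groups followed the order of the histone cluster genes, in which siNC replicate 2 stood alone. The part of the selection step in the histone values was not tested.

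**Figure D4:**
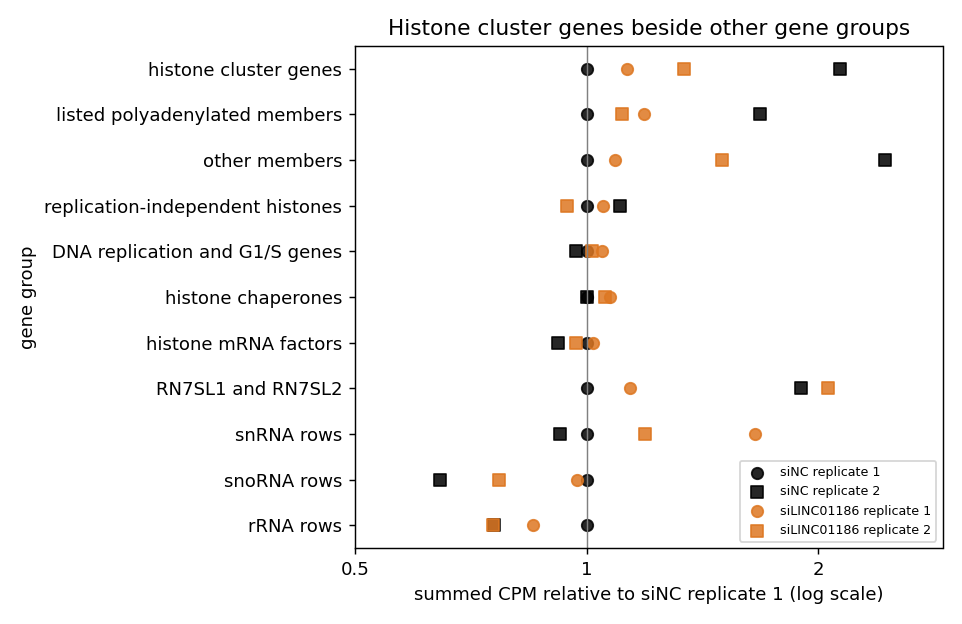
Summed CPM of histone cluster genes and of other gene groups in each library, relative to siNC replicate 1, on a log axis. SiNC replicate 2 lies at 2.13 for the histone cluster genes, while RN7SL1 and RN7SL2 are near 1.9 in both replicate 2 libraries and the replication, chaperone and factor lists stay near 1.

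Base composition and length were compared over all protein-coding genes. When the protein-coding genes were split into 10 equal groups by GC content, the median log2 difference of replicate 2 minus replicate 1 in siNC ran from -0.04 to 0.14 over the groups. Split by length, it ran from 0.03 to 0.18. The corresponding median of the 65 members was 1.03, that of the protein-coding genes tested 0.08 and that of all genes 0.11. The shortest of the 10 length groups held 64 of the members, and the median over its genes was 0.11. The members' median GC content was 57.5%, against 49.8% of all protein-coding genes.

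Near-identical copies limit some members. Of the 50-base windows of each coding sequence, none occurred in another member for 35 members, and under 10% did for 48. All windows were shared for HIST1H4J, HIST1H4K, HIST2H2AA3, HIST2H2AA4, HIST2H3A, HIST2H3C, HIST2H4A and HIST2H4B, whose counts are uncertain. HIST1H4C, HIST1H4E, HIST1H4D, HIST1H1C and HIST1H3A shared 0 windows, while HIST1H2BC shared 14.2%, HIST1H2BO 13.6% and HIST1H2BK 22.6%. HIST1H2AD overlaps HIST1H3D on the same strand and HIST1H2BK overlaps HIST1H4I on the opposite strand, and whether strand was used in counting is not stated in the sources used here, so reads in these overlaps cannot be assigned.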

How the data were processed

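RNA of 4 libraries, 2 per group by the labels, was selected for poly(A), fragmented and read as paired ends. The authors deposited unnormalized counts per gene and TPM values, which are counts divided by gene length and scaled per library. The submitters' processing notes list HISAT2, TopHat2, Bowtie2 and HISAT and the build hg19, with no versions or roles, and the counter and annotation are not given in the sources used here. Reads were not realigned.

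CPM was computed as the count over the library total of the deposited count table. The 23942 genes whose counts reached a total of 5 were normalized by TMM and tested with the quasi-likelihood test of edgeR 4.0.16 in R 4.3.3, without a block, with Benjamini-Hochberg adjustment over all of them. The standard error of a fold change was derived from its F statistic. Log2 differences between 2 libraries used 2 added counts. DESeq2 1.42.0 and other filters, scalings and designs were alternatives. Depth was 14968958 to 17297245 counts per library. The labels do not say that the replicates were separate cultures, although the study calls them biological repeats, so p-values measure the spread between these samples, which may be technical.

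Stem-loops and shared windows were searched in GENCODE release 29 (GRCh38) transcripts with Python 3.11.15. Gene positions are those of the tables, and no coordinates were converted. Named genes were the 4 members of highest mean CPM in each class, the members past a call rule, up to 5 with the smallest p in each direction, and the 5 listed polyadenylated ones. In the other lists they were those past a call rule or of high CPM. Members and lists were chosen with earlier results of these data known.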

Additional observations from a re-analysis of the deposited data

Results flagged for a closer look

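The summed CPM of the 70 histone cluster genes in the siLINC01186 library was 1.13 times that of the siNC library in replicate 1 and 0.629 times in replicate 2. The result was marked because the direction of the siRNA comparison in CPM was opposite in the 2 replicate numbers. On the deposited TPM it was not, with ratios of 0.933 and 0.563, and with MIR6087 taken out of the TPM total the ratios were 1.07 and 0.604. The difference itself was not tested, because each number has 1 library per group. SiNC replicate 2 had the highest sum, and the replicate 2 libraries also had the higher hepatocyte marker sums, 5.63 and 4.41 CPM against 0.173 and 0.401 CPM in replicate 1, whose part in the difference was not tested.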

How the results depend on the processing

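The siRNA groups share replicate numbers, but no source gives same-numbered libraries a common day or culture. Deviations from the group means correlated between same-numbered libraries with r = 0.563 over 16848 genes and 0.523 over 54 members. With the replicate block, 4 members were called after adjustment in siLINC01186 against siNC (HIST1H4D, HIST1H2BC, HIST1H2BO and HIST1H4E, all lower), against 0.814% of all genes lower and 0.347% higher, and HIST1H1D and HIST1H2BK changed sign, to -0.025 and -0.017. At the limits of the study, 1 higher member became 0 with edgeR's expression filter and 2 with at least 1 count in any library. The shares of all genes were 0.464%, 0.190% and 0.441%. The 2 lower members, against 0.292% of all genes, became 1 with DESeq2, the expression filter, protein-coding genes only or robust estimation. The shares of all genes were then 0.050%, 0.083%, 0.085% and 0.297%. With at least 1 count in any library, 3 members were lower, against 0.327%. The counts with a library left out are given in the results above, with their shares. For replicate 2 against replicate 1, the 13 adjusted calls became 7 with DESeq2, 20 with at least 1 count in any library, 21 with the treatment as a second term and 10 to 22 without a library. The 14 higher members at the limits became 9 with DESeq2, 9 among members sharing under 10% of coding windows (chosen after seeing the data) and 6 to 28 without a library, and the lower members ran from 0 to 5 without a library. With the treatment term HIST2H2BE changed to -0.018. Where a library left an arm with 1 sample, that sample was assumed to vary like the others. The causes were not tested.

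The log2 ratio of summed CPM, siLINC01186 over siNC, was -0.34 and ran from -0.79 to 0.30 without a library, the latter without siNC replicate 2. Across the scalings and the deposited TPM, siNC replicate 2 stood at 2.01 to 2.44 times siNC replicate 1. This range includes the sums without the listed polyadenylated members and without HIST1H2BK. Other sets of members lay outside it, such as those above 800 bases at 1.42 and the H4 genes at 2.75. The ratio of siLINC01186 to siNC in replicate 1 turned from 1.13 in CPM to 0.933 on the deposited TPM, and was 1.07 with MIR6087 out of the TPM total, an alternative chosen after seeing the data like the sums without HIST1H2BK. Log2 fold changes of siLINC01186 against siNC that changed sign without a library had the ranges HIST1H1B -0.69 to 0.87, HIST1H1C -0.997 to 0.14, HIST1H1D -0.57 to 0.44, HIST1H1E -0.075 to 0.12, HIST1H2AC -0.91 to 0.53, HIST1H2AM -0.83 to 0.63, HIST1H2BC -1.59 to 0.32, HIST1H2BD -0.52 to 0.48, HIST1H2BK -0.39 to 0.35, HIST1H2BO -1.93 to 0.53, HIST1H3B -0.54 to 0.59, HIST1H3D -1.08 to 0.11, HIST1H3G -0.90 to 0.023, HIST1H3H -1.30 to 0.29, HIST1H4B -1.19 to 0.21, HIST1H4C -1.27 to 0.51, HIST1H4E -1.36 to 0.23, HIST2H2BE -0.83 to 0.12, HIST3H2A -0.38 to 0.42, HIST4H4 -0.30 to 1.17. Those of replicate 2 against replicate 1 had the ranges HIST1H1E -0.16 to 0.0023, HIST1H2AE -0.31 to 1.00, HIST1H3A -0.16 to 1.16, HIST1H3G -0.65 to 0.55, HIST1H4D -0.093 to 1.41, HIST2H2BE -0.63 to 0.51. With 2 libraries per group and few counts for many members, small differences were not detectable.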

Other observations

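Reads of the first genes of the chromosome 6 cluster appeared mainly in siLINC01186 replicate 2. HIST1H2BA had 20 counts there and its neighbour HIST1H2AA had 4, and both had 0 counts in the other 3 libraries. HIST1H1A had 22 counts in that library and 4 or 5 in the others. HIST1H3F was lowest in that library, at 8 counts, against 34 in siLINC01186 replicate 1 and 27 and 51 in siNC. These genes were chosen after their values were seen.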
